A study of Mus musculus with 18 samples.

Results

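Skin flaps of mice resting on D150L150 spacers were compared with flaps on D15L150 spacers, the pair of spacer groups that share the L number and lie furthest apart in the D number. The comparison takes in 6 of the 18 RNA-seq libraries of the series, 3 per group, chosen by their labels. In this study a flap of skin was raised, a printed mesh was laid beneath it, and skin was taken at day 7. Near-field electrostatic printing gave meshes of several diameters and spacings. The D numbers of the label are 15 and 150, and the L number is 150 in both groups. The labels do not say what D and L stand for or in which unit, and none is assumed here. No genotype, strain, sex or age of the mice is given in the labels, and whether each library stands for its own mouse is not stated there. The p-values hence set a difference only against the spread of libraries within the groups of the 18-library fit, and some of that spread may be technical. D100L150 flaps, on a spacer with a D number of 100, and Control flaps, left untreated after the flap was made, are given beside them as levels where they help to place a value. The study's stated question is how topology steers the differentiation of cells in place.

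A skin flap keeps its own epidermis, hair follicles, dermis and vessels, and mouse flaps can carry the thin sheet of striated muscle that lies under the dermis. In intact epidermis basal keratinocytes carry the keratins Krt5 and Krt14, and cells that leave the basal layer switch to Krt1 and Krt10 and then build the cornified envelope. Injured epidermis switches on the keratins Krt6, Krt16 and Krt17 and ligands of the EGF receptor. Hair follicles are shaped by hedgehog and WNT signals, and a foreign material under skin draws neutrophils and macrophages. In a bulk sample fewer cells of a type and less RNA per cell cannot be told apart, and this holds for each group of genes below.

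Values are FPKM, fragments of a gene scaled to its length and to all fragments counted in the library, in the order library 1, 2 and 3. Differences are D150L150 minus D15L150 on the log2(FPKM + 1) scale, with the standard error (SE) of a limma fit to all 18 libraries, and this scale understates the change of genes with low values. Of the 27743 genes in the table, 13078 were tested, namely those that reached 1 FPKM in 3 or more of the 18 libraries. The 6 libraries held 28841520 to 34511676 fragments, recovered from the steps of the FPKM values. Epidermis was well represented, with Krt5 at 1086 to 2728 FPKM and Krt14 at 1791 to 4230. The fibroblast genes Col1a1 and Col3a1 lay at 1485 to 4703, and the macrophage gene Cd68 at 165 to 229. The root sheath keratins Krt71, Krt25 and Krt27 of the hair follicle reached 18.8, 13.0 and 8.30 FPKM in D15L150 2. In the other 5 libraries they were close to absent, at 0.641 or less.

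The libraries did not sort cleanly by label. D15L150 3 correlated at 0.983 with D150L150 3 across genes, and at 0.959 and 0.966 with libraries 1 and 2 of its own group. For D150L150 3 the values were 0.961 with D150L150 1 and 0.948 with D150L150 2, a pair with 0.979 between them. For some gene lists the median is therefore also given without the libraries numbered 3, an alternative chosen after this likeness was seen. Skeletal muscle RNA followed this division in part, as it set D15L150 1 and 2 apart from D15L150 3 but not D150L150 3 from its group mates. The summed share of 30 muscle contractile genes in all FPKM was 4.50 and 4.72% in D15L150 1 and 2, 0.970% in D15L150 3, and 0.558, 1.11 and 0.794% in the D150L150 libraries.

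**Figure D1:**
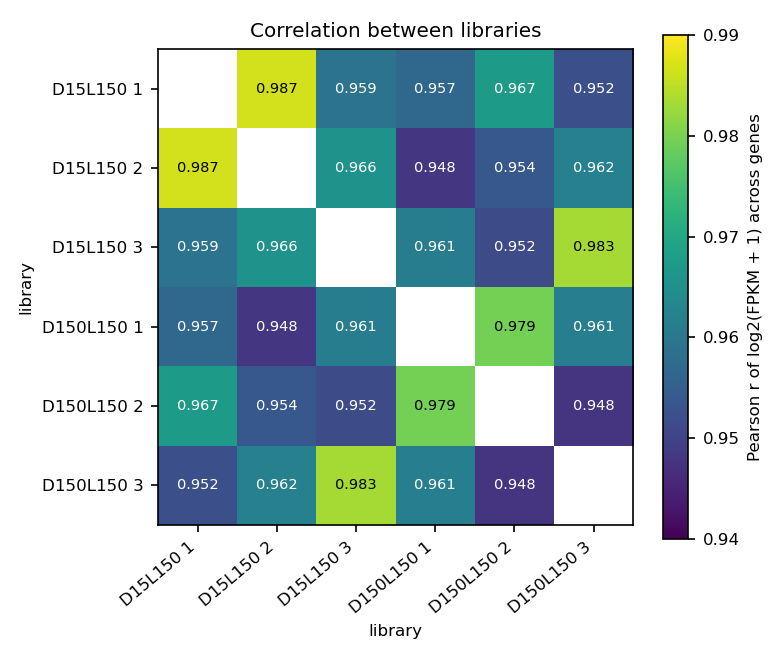
Pearson correlation of log2(FPKM + 1) across the 13078 tested genes for each pair of the 6 libraries. The closest pairs are D15L150 1 with 2 (0.987), D15L150 3 with D150L150 3 (0.983) and D150L150 1 with 2 (0.979).

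No gene passed the test. Of 13078 genes, 0 had an adjusted p under 0.05 in limma (0%), and the smallest Benjamini-Hochberg adjusted p was 0.219. An unadjusted p under 0.05 was found in 648 genes (4.95%), where about 654 are expected from a test with no difference at all. In 446 of these the value was higher in D150L150 (3.41% of genes) and in 202 lower (1.54%). This split depends on the scaling, since the higher share was 68.8% with FPKM as deposited, 59.1% with quantile scaling and 45.6% with TPM scaling. Voom on the recovered fragments also called 0 genes, with 630 at an unadjusted p under 0.05. All values below therefore describe these libraries, and none is a change that passed the test. The median difference over all tested genes was 0.04, and the median half-width of the unadjusted 95% interval of a gene was 0.37. For a typical gene a smaller shift could thus not be told from 0 even before adjustment, and adjustment over all genes asks for a larger one. As a yardstick for the counts below, all 3 D150L150 values lay above all 3 D15L150 values in 1073 genes (8.2%) and below them in 554 (4.24%). The difference was above 0 in 7777 genes (59.5%) and below 0 in 5301 (40.5%).

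**Figure D2:**
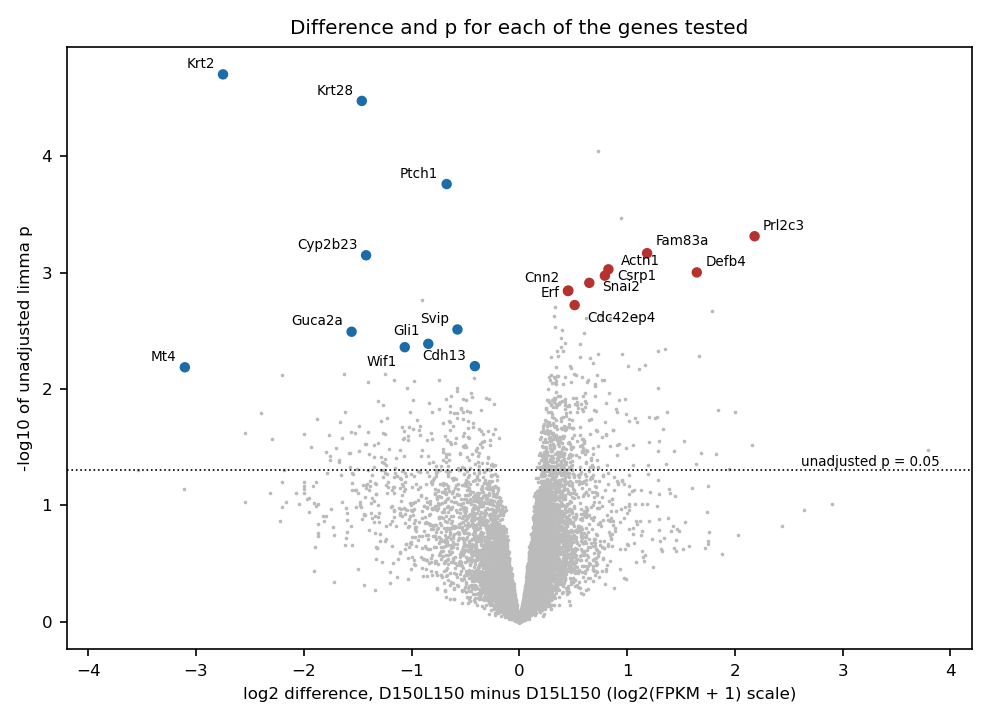
Each point is a gene, with its log2 difference (D150L150 minus D15L150) on the x axis and -log10 of its unadjusted limma p on the y axis. The coloured points are the 19 genes named in the text from those ranked first among genes whose groups do not overlap, with Krt2 and Krt28 at the top of the plot.

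The smallest p belonged to Krt2, a keratin of the upper epidermis at chromosome 15, 101810689 to 101818956 in GRCm38. Krt2 was at 3.03, 6.82 and 12.01 FPKM in the D15L150 libraries and 0.0364, 0.0808 and 0.206 in the D150L150 libraries. Every D15L150 library was well above every D150L150 library, and D100L150 and Control were low as well, with 0, 0.293 and 0.0263 in D100L150 and 0, 0.0229 and 0.0122 in Control. The difference was -2.75 ± 0.44 (SE, 95% interval -3.69 to -1.81, limma adjusted p = 0.219). Next came Krt28, a keratin of the inner root sheath of the hair follicle, at 1.85, 4.01 and 1.40 against 0.150, 0.0535 and 0.355 FPKM, a difference of -1.46 ± 0.25. The root sheath keratins Krt71, Krt25 and Krt27 did not share this pattern, since they were high in D15L150 2 alone. Krt28 reached 1 FPKM in no library outside D15L150, so it was tested only because it was high there, and the filter favours a difference of this sign. Krt2 and Cyp2b23 likewise owed their place among the tested genes to D15L150, since only 2 libraries outside it reached 1 FPKM for either gene. For Krt2 any such library belonged to D15L100 or D15L200, whose values are not described here. The largest negative value among the 20 leading genes was that of Mt4, a metallothionein of stratified epithelia. Mt4 was at 8.004, 56.97 and 40.3 FPKM in D15L150 and 2.05, 0.623 and 5.88 in D150L150, so its lowest D15L150 value lay close to its highest D150L150 value.

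Hedgehog signalling was represented among the leading genes by Ptch1 and Gli1, its receptor and its effector transcription factor, which are both textbook target genes of the pathway. Ptch1, at chromosome 13, 63508328 to 63573460, was at 3.41, 2.69 and 4.18 FPKM in D15L150 and 1.65, 1.47 and 2.16 in D150L150, with 1.81, 1.505 and 1.64 in Control. Gli1 was at 2.71, 2.68 and 3.78 against 1.22, 0.882 and 1.69. D15L150 stood above D150L150 without overlap for both, and for Ptch1 Control and D150L150 overlapped. The differences were -0.67 ± 0.13 for Ptch1 (limma adjusted p = 0.569) and -0.84 ± 0.25 for Gli1 (limma adjusted p = 0.89). Wif1, a secreted WNT inhibitor, was at 2.77, 3.30 and 2.68 in D15L150 and 1.17, 0.530 and 0.969 in D150L150, a difference of -1.06 ± 0.31. The other genes on this side were Cyp2b23, a cytochrome P450 gene (-1.42 ± 0.33), Guca2a, encoding the peptide guanylin (-1.56 ± 0.44), Svip (-0.57 ± 0.16) and the cadherin gene Cdh13 (-0.41 ± 0.13). In all 4 of these the D150L150 values lay below the D15L150 values by the rule that chose them.

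On the higher side, the leading genes included Actn1, Csrp1 and Cnn2, which encode proteins of the actin cytoskeleton. Actn1, encoding alpha-actinin at chromosome 12, 80167542 to 80260420, was at 31.5, 29.4 and 32.1 FPKM in D15L150 and 55.8, 42.4 and 73.1 in D150L150, a difference of 0.83 ± 0.20. Csrp1, encoding a LIM protein that binds alpha-actinin, was at 54.3, 62.8 and 73.3 against 106, 93.4 and 134. For both genes the lowest D150L150 library exceeded the highest D15L150 library by a clear margin. Cnn2, encoding a calponin, was at 68.99, 81.8 and 75.6 against 113, 94.2 and 104, the smallest of the 3 differences at 0.45 ± 0.12. Control values of Csrp1 (118, 83.9 and 79.1) reached into the D150L150 range. The actin genes Actb and Actg1 had differences of the same sign and smaller size, 0.43 ± 0.17 and 0.40 ± 0.17.

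The remaining leading genes on the higher side were of other kinds. Snai2, a transcription factor known for its part in cell migration, was at 9.66, 11.4 and 11.9 FPKM in D15L150 and 16.6, 15.7 and 21.3 in D150L150, a difference of 0.65 ± 0.16. Defb4, a defensin of epithelia, was at 0.759, 0.0637 and 1.06 against 5.10, 2.79 and 4.12, a difference of 1.65 ± 0.40 between low values. Prl2c3, a prolactin family gene, was at 1.04, 1.49 and 2.43 against 21.998, 10.03 and 5.44, and since it belongs to a family of near-identical copies its fragments may be split uncertainly. Fam83a (1.19 ± 0.27), the repressor gene Erf (0.45 ± 0.11) and Cdc42ep4, encoding a Cdc42 effector (0.51 ± 0.14), were also higher in each D150L150 library, and the leading genes named on this side had an adjusted p of 0.89 in limma. None of the 20 leading genes overlapped between groups, which is how they were chosen and adds no support.

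**Figure D3:**
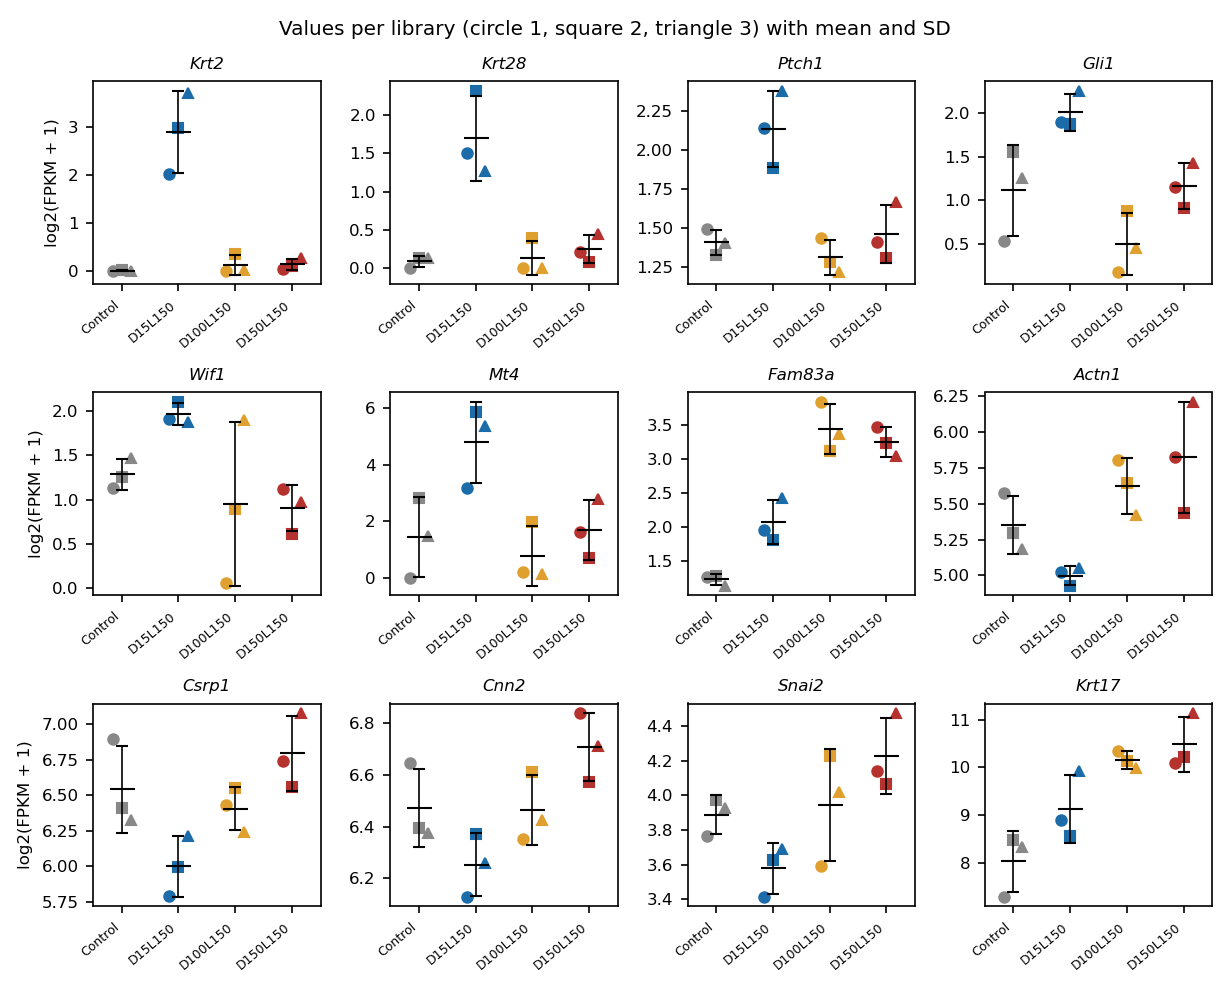
log2(FPKM + 1) of 12 genes in each library of Control, D15L150, D100L150 and D150L150, with the mean and SD (n = 3) in black. Krt2 and Krt28 are high in D15L150 and near 0 in the other 3 groups, whereas for Actn1 and Krt17 every D100L150 and D150L150 value lies above every D15L150 value.

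Of the 20 leading genes, 14 had a promoter window in the RefSeq table (GRCm38.p6), which spans 250 bases before to 50 after a gene's start, and 23 of the 30 skeletal muscle genes described below had one. Cnn2 alone among these 14, and 2 of those 23, hold a CArG box, the element bound by serum response factor at genes of actin and muscle proteins. The pattern is the same on either strand, was the only motif searched, and was found in 1.63% of the 32851 windows of the table. That share counts windows, whereas the 14 and the 23 count genes. The 250 bases before the start of Cnn2 are shown beside those of Acta1, the skeletal muscle actin gene, since these genes share the box and had differences of opposite sign. Sequences run 5′ to 3′ on the gene's strand, with the CArG box in capitals, at chr10:79988350-79988599 (plus strand) for Cnn2 and chr8:123894776-123895025 (minus strand) for Acta1.
Cnn2: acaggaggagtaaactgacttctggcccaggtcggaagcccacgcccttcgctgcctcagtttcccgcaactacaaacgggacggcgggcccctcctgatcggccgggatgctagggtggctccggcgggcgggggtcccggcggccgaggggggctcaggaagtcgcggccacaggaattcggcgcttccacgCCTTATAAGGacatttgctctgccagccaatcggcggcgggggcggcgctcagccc
Acta1: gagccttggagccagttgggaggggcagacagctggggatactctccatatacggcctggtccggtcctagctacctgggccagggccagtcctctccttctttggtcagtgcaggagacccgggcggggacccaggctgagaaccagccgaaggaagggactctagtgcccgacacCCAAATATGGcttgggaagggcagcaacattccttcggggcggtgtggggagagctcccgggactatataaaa
The box begins 56 bases before the start of Cnn2 and 73 bases before that of Acta1. These windows were picked after the values were seen, and a match in letters is no measure of binding. The serum response factor gene Srf, named for this link after the values were seen, was at 10.3, 9.95 and 9.34 FPKM in D15L150 and 10.7, 12.5 and 12.01 in D150L150, a difference of 0.23 ± 0.11.

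The gene lists place these genes in the tissue. None of the 974 list members tested passed over all genes in limma, so each list is described by its median, by the number of members whose 3 D150L150 values all lay above or below the 3 D15L150 values, and by levels per library. Such counts are to be read against 8.2 and 4.24% of all tested genes, and members of a list vary together. The lists span a range of medians from 1.10 for neutrophil genes to -1.76 for skeletal muscle genes.

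**Figure D4:**
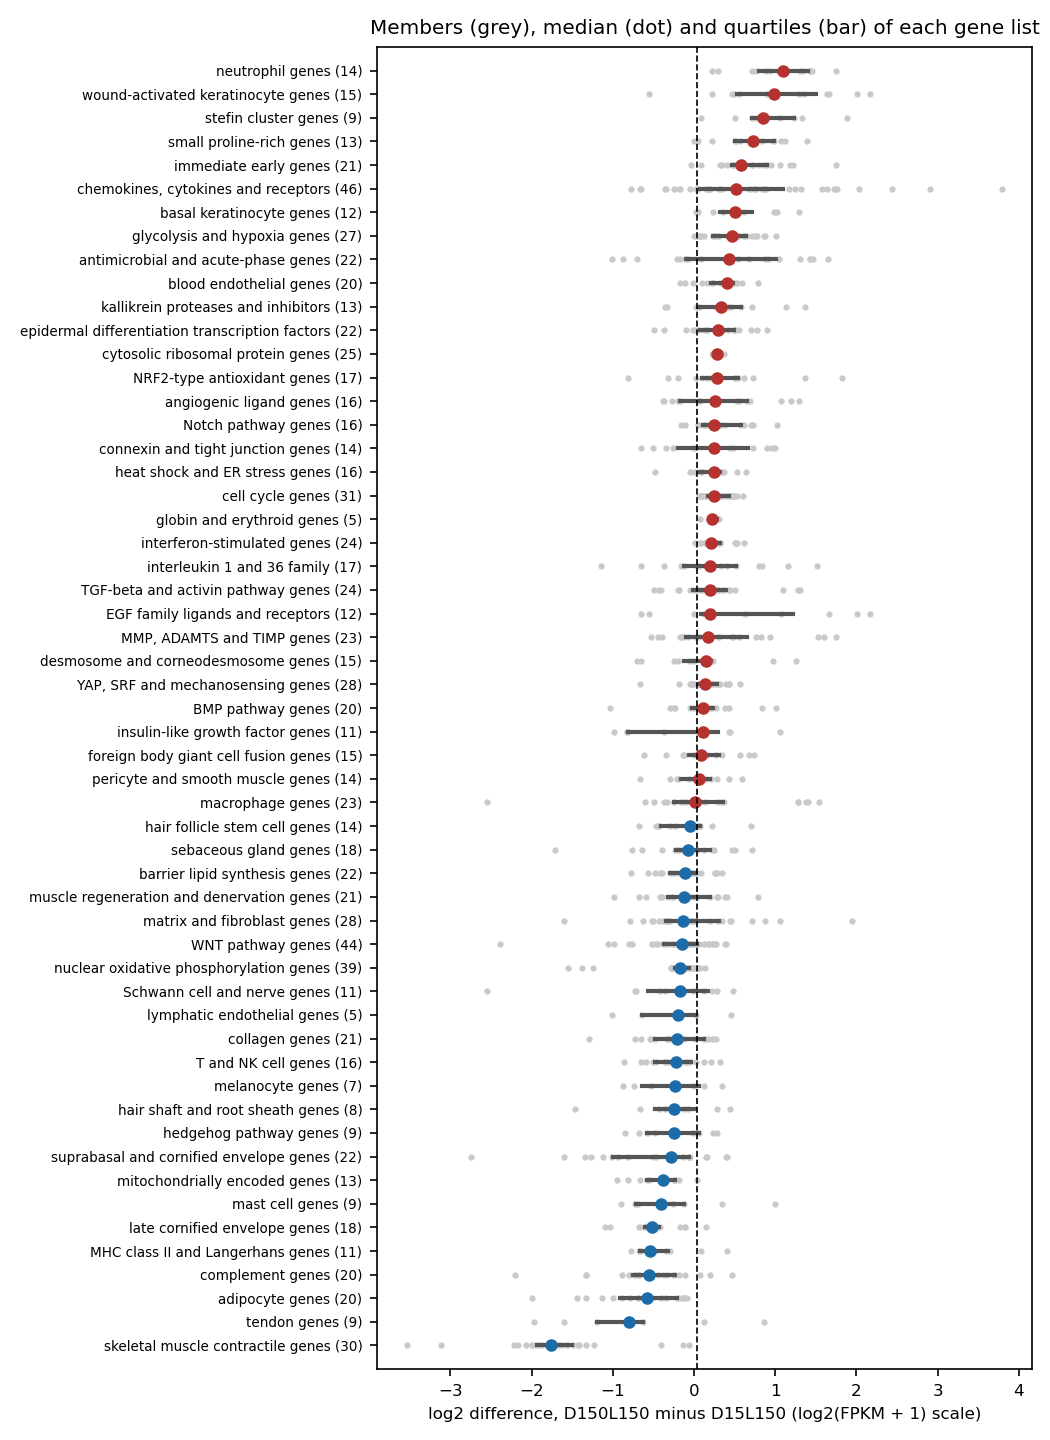
log2 difference (D150L150 minus D15L150) of each tested member of 55 gene lists (grey points), with the median (dot, red above 0 and blue below) and quartiles (bar), the number of members tested in brackets and the median of all genes, 0.04, as a dashed line. Neutrophil and wound-activated keratinocyte genes have the highest medians and skeletal muscle genes the lowest. The list of B and plasma cell genes, with 1 tested member, is left out.

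In the epidermis, genes of basal and wound-activated keratinocytes had higher values in D150L150, and genes of the late, cornifying layers lower ones. All 12 basal genes had positive differences, with a median of 0.50 (0.90 without the libraries numbered 3, and 0.27 to 0.84 with 1 library left out, lowest without D15L150 2 and highest without D15L150 3), and 3 did not overlap. Lama3 and Lamb3, among these, encode laminin chains that tie basal cells to the basement membrane. Lama3 was at 6.18, 5.46 and 10.4 FPKM in D15L150 and 17.03, 14.7 and 14.7 in D150L150, a difference of 1.02 ± 0.38. Lamb3 differed by 0.99 ± 0.36. For both genes D15L150 3 was the highest of its group and came closest to D150L150. Krt14 overlapped, at 1791, 2555 and 4114 against 4230.0, 4005 and 3996.

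Among 15 wound-activated keratinocyte genes, 14 had positive differences, the median was 0.98, and 7 lay higher without overlap. Krt17 was at 475, 378 and 973 FPKM in D15L150 and 1088, 1194 and 2261 in D150L150, a difference of 1.36 ± 0.40 with an unadjusted p of 0.00456 in limma. The lowest D150L150 library was only slightly above D15L150 3. Krt6a was at 731, 838 and 1395 against 1796, 1744 and 1805, where it shares sequence with Krt6b and the split of fragments between them is uncertain. Hbegf, a ligand of the EGF receptor shed at wounds, was at 8.52, 5.60 and 13.5 against 28.99, 42.9 and 20.98, a difference of 1.66 ± 0.50. Its fellow ligands Areg and Epgn had larger differences, 2.00 ± 0.73 and 2.16 ± 0.90, but overlapped, because D15L150 3 (13.0 and 19.5 FPKM) exceeded D150L150 3 (12.4 and 12.4). Tgfa differed by 1.07 ± 0.40 without overlap. The family did not go 1 way, as 9 of 12 EGF family ligand and receptor genes had positive and 3 negative differences. Of these 12 genes, 2 lay higher and 1 lower without overlap. The median of this family was 0.19, and it ranged from -0.03 to 0.40 with 1 library left out. The level of the wound-activated list, the mean log2(FPKM + 1) of its members, was 5.36, 5.12 and 6.07 in D15L150 and 6.69, 6.84 and 6.03 in D150L150, so that libraries 3 of the groups were alike. Without these 2 libraries the median was 1.18, and with each library's muscle level as a covariate it was 0.48.

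Of 22 suprabasal and cornified envelope genes, 18 had negative differences, with a median of -0.29. Those without overlap were Krt2 and Krt10. Krt10, the keratin of cells that have just left the basal layer, was at 284, 657 and 734 FPKM in D15L150 and 255, 69.3 and 271 in D150L150, but D15L150 1 and D150L150 3 were close and the difference of -1.61 ± 1.17 had a wide error. Krt1, its partner, overlapped at 980.0, 2494 and 2365 against 1165, 513 and 932. Hrnr, encoding the filaggrin-like protein hornerin, was at 17.3, 41.8 and 47.3 against 18.5, 9.14 and 12.7, overlapping through D15L150 1, with a difference of -1.27 ± 0.50. The 18 late cornified envelope genes had a median of -0.51, 17 of them below 0, and Lce1l alone did not overlap (39.7, 56.3 and 91.1 against 31.1, 17.6 and 35.2). In Control Krt1 was lower than in either group, at 19.99, 269 and 263 FPKM. Lce genes resemble each other in sequence, which makes each single value less certain. Without the libraries numbered 3 the medians of these lists were -0.40 and -0.33. With 1 library left out they ranged from -0.66 to -0.06 for suprabasal genes (nearest to 0 without D150L150 2) and from -0.89 to -0.20 for late envelope genes (nearest to 0 without D15L150 3), and with the muscle covariate they were -0.67 and -0.73. Barrier lipid genes had a median of -0.11, which ranged from -0.37 to 0.16 when 1 of the 6 libraries was left out, and so had no stable sign.

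Other epidermal families had medians above 0 with much overlap, and not all kept that sign. The kallikrein and inhibitor median was 0.33, and -0.005 with the muscle covariate. The desmosome median was 0.15 and ranged from -0.10 to 0.40 when 1 library was left out. For connexin and tight junction genes the median was 0.25, with leave-one-out medians from 0.003 to 0.54. The 13 small proline-rich genes, envelope precursors switched on in stressed epidermis, had a median of 0.73 (0.16 with the muscle covariate) and none below 0, and Sprr2d alone did not overlap (55.7, 72.5 and 57.1 against 238, 105 and 96.3), although the Sprr2 genes resemble each other in sequence. Klk6, a kallikrein-related protease, was at 150.1, 155 and 248 FPKM in D15L150 and 470.2, 367 and 577 in D150L150, a difference of 1.37 ± 0.50, and it alone of 13 kallikrein and inhibitor genes did not overlap. Of 14 connexin and tight junction genes 5 lay higher without overlap, among them the connexin genes Gjb2 (123.4, 150.4 and 166 against 353, 272 and 256) and Gjb6 (17.9, 19.5 and 19.5 against 51.1, 30.4 and 30.7). Among desmosomal cadherins Dsc2 and Dsg3 differed by 1.26 ± 0.47 and 0.97 ± 0.49 without overlap, whereas Dsc1, a cadherin of the upper layers, had -0.66 ± 0.51 and overlapped. Cstb, a cysteine protease inhibitor, was at 248, 272 and 392 against 431, 450.1 and 792, a difference of 0.84 ± 0.23. It led the 9 stefin genes, which had a median of 0.84 (0.38 with the muscle covariate) and none below 0. Apart from Cstb and Cst6 the genes of this list are close copies of each other, and how their fragments were divided is uncertain.

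Notch signalling, which promotes the exit of keratinocytes from the basal layer and also acts in vessels, had mostly higher values in D150L150. Of 16 Notch pathway genes 6 lay higher without overlap, 0 lay lower, and the median was 0.25 (0.15 with the muscle covariate, and also 0.15 without D15L150 3). The ligand gene Jag1 was at 4.52, 4.53 and 4.72 FPKM in D15L150 and 6.14, 7.52 and 9.44 in D150L150, a difference of 0.62 ± 0.17 (unadjusted p of 0.00247 in limma). Jag1 was nearly constant in D15L150 and lower there than in any Control library (5.07, 6.32 and 5.10). The receptor gene Notch1 differed by 0.39 ± 0.17 and the target gene Hes1 by 0.56 ± 0.22, both without overlap. Nrarp, a feedback target, differed by 0.72 ± 0.23 but overlapped by a narrow margin (35.9 FPKM in D15L150 3 and 35.7 in D150L150 2). The list level was 3.00, 2.91 and 2.87 in D15L150 and 3.27, 3.25 and 3.22 in D150L150, so that here the libraries numbered 3 kept to their own groups.

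Hedgehog genes lay on the lower side. Of 9 tested, 4 lay lower in D150L150 without overlap and none lay higher, with a median of -0.25 (-0.35 without the libraries numbered 3). The median was -0.14 with the muscle covariate and ranged from -0.44 to -0.06 when 1 library was left out, nearest to 0 without D150L150 2. Beside Ptch1 and Gli1 these included the co-receptor gene Cdon, at 2.999, 2.68 and 2.25 FPKM in D15L150 and 1.70, 1.24 and 1.93 in D150L150, a difference of -0.48 ± 0.18. The other 5 of the 14 listed genes, which include the ligand gene Shh, did not pass the filter on low values. D100L150 was low too, with Gli1 at 0.128, 0.836 and 0.369.

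Of 44 WNT pathway genes 32 had negative differences, 7 lay lower and 1 higher without overlap, and the median was -0.15 (-0.05 with the muscle covariate). The 4 members with the smallest p, Wif1 among them, encode inhibitors of the pathway. Sfrp4, a secreted decoy for WNT ligands, was at 26.7, 28.05 and 14.6 FPKM in D15L150 and 0.891, 10.1 and 3.16 in D150L150, a difference of -2.39 ± 0.87. Sfrp5 was at 3.78, 5.26 and 3.14 against 0.791, 2.79 and 1.36. Nkd1, an intracellular inhibitor that is itself a WNT target, differed by -0.37 ± 0.15. In hair genes only 8 of 26 passed the filter, and of these Krt28 and Msx1 (1.08, 1.21 and 0.880 against 0.762, 0.489 and 0.563) lay lower. Lgr6, a stem cell gene of the follicle's upper part, was at 2.16, 1.62 and 3.23 against 1.31, 0.975 and 0.875. Sebaceous genes gave no direction, with a median of -0.07 and leave-one-out medians from -0.60 to 0.23. Scd3, a fatty acid desaturase of sebocytes, was at 19.7, 19.6 and 46.1 in D15L150 and 8.88, 1.87 and 18.9 in D150L150 and differed by -1.72 ± 1.22.

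Skeletal muscle genes had the lowest median of all lists. All 30 had negative differences, with a median of -1.76, and 12 did not overlap. The fast-fibre alpha-actinin gene Actn3 was at 383, 383 and 149 FPKM in D15L150 and 70.8, 106 and 97.9 in D150L150, a difference of -1.62 ± 0.59. Acta1 was at 4456, 4863 and 1187 against 731, 1374 and 993, and here D15L150 3 lay inside the D150L150 range. The list level was 7.81, 7.96 and 5.57 in D15L150 and 4.78, 6.01 and 5.46 in D150L150, so the D15L150 group mixed 2 muscle-rich libraries with a muscle-poor one. The median ranged from -2.43 to -1.36 when 1 of the 6 libraries was left out, and it was -2.43 without the libraries numbered 3. Myf6, a muscle regulatory factor of grown fibres, was at 25.6, 27.3 and 15.6 against 7.60, 13.1 and 12.3 and Cacna1s, a calcium channel gene of muscle, at 29.3, 28.7 and 14.3 against 4.86, 7.78 and 7.50. How far other genes moved with the amount of muscle in a library was not tested. Muscle level itself differed between the groups, so a fit with it as a covariate cannot tell muscle from group. With each library's muscle level added to the fit as a covariate, 237 genes had an unadjusted p under 0.05 in place of 648, and none was called.

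Tendon, mitochondrial and nerve genes had medians of the same sign as muscle, and what part muscle had in them was not tested beyond the covariate. The 9 tendon genes had a median of -0.80 (-0.21 with the covariate). Their list level was 3.67, 3.76 and 2.96 in D15L150 and 2.80, 2.19 and 3.13 in D150L150, so D15L150 3 lay inside the D150L150 range. The tendon transcription factor gene Scx was at 13.04, 11.99 and 12.6 FPKM in D15L150 and 6.02, 5.92 and 7.97 in D150L150, a difference of -0.84 ± 0.38. For Scx, unlike the list, D15L150 3 was as high as its group mates. Of 13 mitochondrially encoded genes 7 lay lower without overlap, with a median of -0.38 (-0.12 with the covariate). Together they made up 5.60, 5.58 and 4.41% of all FPKM in D15L150 and 3.35, 3.68 and 4.41% in D150L150, so that the libraries numbered 3 had equal shares. ND4L, a subunit of complex I whose gene overlaps ND4, differed by -0.95 ± 0.36. Nuclear genes of oxidative phosphorylation had a median of -0.17, which turned to 0.11 with the covariate. The largest differences were those of muscle isoforms, -1.56 ± 0.78 for Cox6a2 and -1.38 ± 0.77 for Cox8b, which both overlapped. Schwann cell and nerve genes had a median of -0.17 over 11 genes, which was -0.01 without D150L150 3, and none lay apart.

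**Figure D5:**
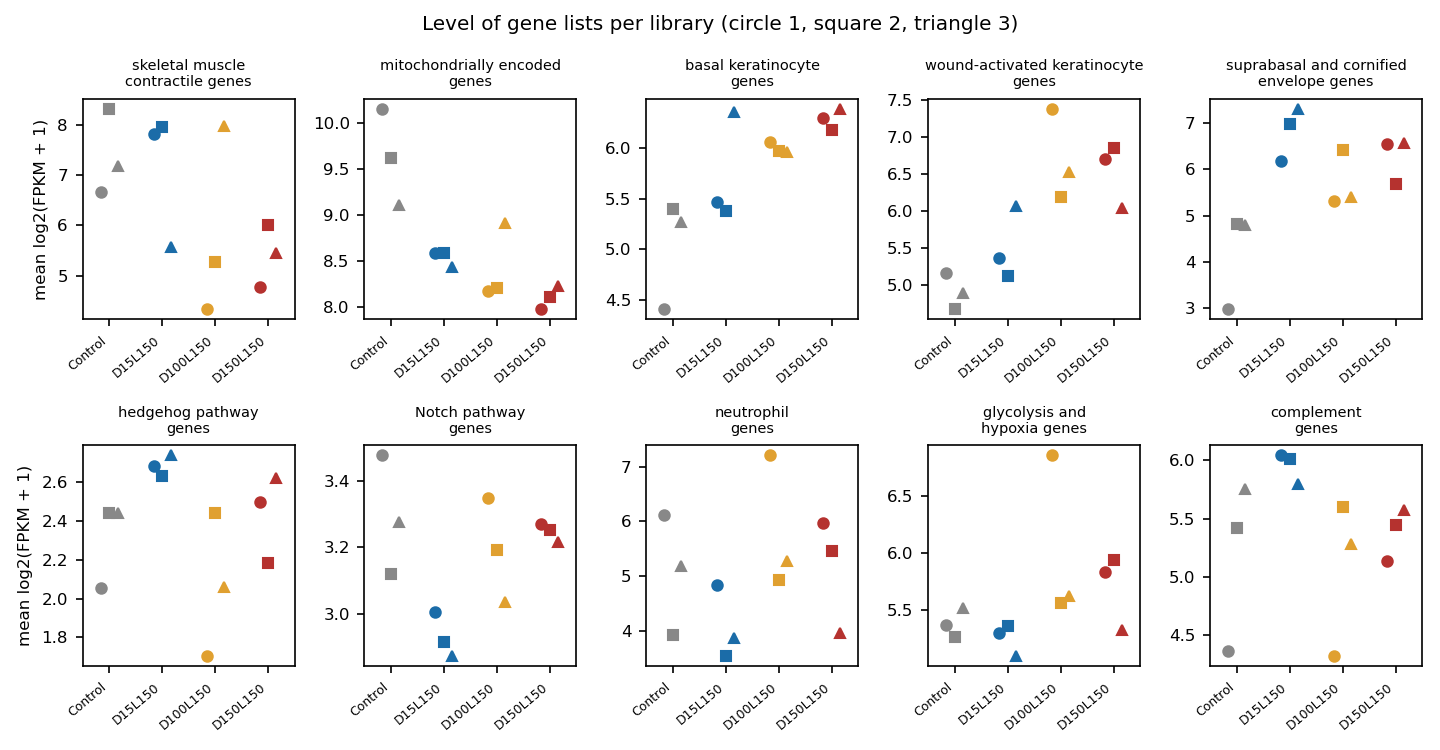
Mean log2(FPKM + 1) of the members of 10 gene lists in each library of Control, D15L150, D100L150 and D150L150. For muscle, basal keratinocyte and wound-activated genes D15L150 3 (triangle) sits nearer to D150L150 than its group mates do, whereas for Notch, hedgehog, mitochondrially encoded and complement genes the D15L150 and D150L150 libraries do not overlap.

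Genes of glycolysis and the hypoxia response had higher values in D150L150, most of all in libraries 1 and 2. All 27 had positive differences, with a median of 0.47 (0.16 with the muscle covariate and 0.28 without D150L150 2), and 10 did not overlap. Ddit4, an inhibitor of mTOR induced by hypoxia, was at 28.2, 31.6 and 30.8 FPKM in D15L150 and 71.2, 72.3 and 46.1 in D150L150. Car9, a carbonic anhydrase and classic hypoxia target, was at 1.29, 1.19 and 1.32 against 3.05, 3.71 and 2.79. Eno1 and Pfkl, which encode glycolytic enzymes, differed by 0.54 ± 0.26 and 0.66 ± 0.30. D150L150 3 was the lowest of its group for each of these 4 genes, and still above all D15L150 libraries. Angpt2, a vessel-destabilising ligand, showed this pattern too, at 3.98, 4.16 and 3.95 against 14.2, 16.3 and 4.84.

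Immediate early genes, which respond to injury and handling within minutes, lay higher without overlap in 10 of 21, with a median of 0.58 (0.84 without the libraries numbered 3, 0.21 with the muscle covariate). Fosb was at 8.99, 10.8 and 11.4 FPKM in D15L150 and 47.7, 25.8 and 12.96 in D150L150, a difference of 1.21 ± 0.64, and Egr1 at 41.8, 49.7 and 36.04 against 103, 67.7 and 66.7. Btg2 and Ier2 differed by 0.81 ± 0.32 and 0.73 ± 0.33. The spread within D150L150 was wide, as D150L150 1 was the highest and D150L150 3 the lowest of its group for each of these 4 genes. Heat shock and ER stress genes differed less, with a median of 0.24, and the chaperone gene Hspa8 was at 487, 468 and 503 against 547, 595 and 570.5. The antioxidant gene Nqo1, a target of NRF2, was at 1.77, 2.30 and 3.62 against 4.03, 4.48 and 6.02, a difference of 0.73 ± 0.22, and the thioredoxin gene Txn1 differed by 0.50 ± 0.20. Ribosomal protein genes had a median of 0.29 with all 25 positive, and cell cycle genes 0.24 with all 31 positive. With 1 library left out these medians ranged from 0.12 to 0.43 (lowest without D15L150 1) and from 0.16 to 0.40 (lowest without D150L150 1), both highest without D15L150 3. For cell cycle genes 7 did not overlap, among them Plk1 (9.34, 12.2 and 11.3 against 19.01, 15.2 and 12.8), a mitotic kinase gene.

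Vessel genes did not separate the groups. None of 20 blood endothelial genes lay apart in either direction, with a median of 0.41 (0.18 with the muscle covariate), and the list level was 3.81, 3.58 and 3.14 in D15L150 and 4.08, 4.13 and 3.30 in D150L150. The libraries numbered 3 were the lowest of each group. The endothelial gene Emcn differed by 0.78 ± 0.59 with a 95% interval of -0.48 to 2.04, so a sizeable difference in either sense could not be told from 0. None of 14 pericyte and smooth muscle genes and none of 5 lymphatic genes lay apart either. Globin genes, a measure of red cells in the sample, varied widely, with Hbb-bs at 221, 197 and 214 in D15L150 and 351, 518 and 93.01 in D150L150.

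In the dermis, the genes of type I collagen had lower values in each D150L150 library. Col1a1 was at 3355, 2771 and 2531 FPKM in D15L150 and 2152, 1902 and 1485 in D150L150, and Col1a2 at 2979, 2546 and 2493 against 1738, 1607 and 1489. Their differences of -0.65 ± 0.41 and -0.73 ± 0.45 had wide errors in the fit, although the groups did not overlap. The list of 21 collagen genes had a median of -0.21, with 7 members above 0, and 4 lower and 1 higher without overlap. This median was -0.08 without D150L150 2 and -0.11 with the muscle covariate. Sparc, a collagen-binding protein, differed by -0.51 ± 0.30. Thrombospondin 1, encoded by Thbs1, was at 60.98, 38.4 and 40.6 against 295, 239.5 and 81.2, a difference of 1.95 ± 0.90. The collagenase gene Mmp13 was at 20.9, 11.4 and 22.7 against 56.4, 54.9 and 47.04, higher in each D150L150 library by more than 2-fold over any D15L150 library. Crabp1, a retinoic acid binding protein of dermal fibroblasts, was at 41.8, 50.2 and 56.2 against 169, 91.6 and 70.3.

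Growth factor genes of the dermis were mixed. Inhbb, which encodes a subunit of activin B, was at 7.03, 6.68 and 8.07 FPKM in D15L150 and 18.8, 19.996 and 18.5 in D150L150. The 2 groups were tight and far apart, with a difference of 1.28 ± 0.38 and an unadjusted p of 0.00474 in limma, and Control was at 28.3, 10.3 and 15.9. The binding protein genes Igfbp5 and Igfbp3 went opposite ways, Igfbp5 at 106, 139 and 89.8 against 58.2, 58.03 and 71.004 and Igfbp3 at 27.3, 36.5 and 39.04 against 65.1, 89.1 and 63.04. The BMP inhibitor gene Chrdl1 was at 6.52, 4.62 and 4.24 against 1.07, 3.09 and 2.04, and the BMP target gene Id1 at 31.8, 19.2 and 35.8 against 55.7, 50.02 and 47.7. Among 28 YAP, SRF and mechanosensing genes 5 lay higher and 0 lower without overlap, with a median of 0.14. The focal adhesion gene Vcl was at 27.9, 30.7 and 25.3 against 36.9, 31.4 and 34.6. All 20 adipocyte genes had negative differences, with a median of -0.58, and 2 lay lower without overlap. The median was -0.16 without D150L150 2, -0.94 without the libraries numbered 3 and -0.27 with the muscle covariate. Car3, a carbonic anhydrase of fat and muscle, was at 846, 911 and 635 against 126, 172 and 351.

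Inflammatory genes varied widely within the D150L150 group. Neutrophil genes had a median of 1.10 with all 14 positive, yet only 3 did not overlap. Without the libraries numbered 3 this median was 1.78, and with the muscle covariate it was 0.19. It ranged from 0.79 to 1.91 with 1 library left out, highest without D150L150 3. S100a8, abundant in neutrophils and also induced in keratinocytes, was at 621, 417 and 551 FPKM in D15L150 and 2213, 1497 and 643 in D150L150, so D150L150 3 was barely above D15L150 1. Mmp8, the neutrophil collagenase, was at 5.53, 2.67 and 3.58 against 26.6, 14.5 and 8.81. Il1b overlapped, at 86.7, 19.98 and 36.4 against 309.8, 216 and 22.8, and so did the chemokine gene Cxcl3, at 21.9, 6.07 and 3.92 against 183, 241 and 6.47. Ppbp, a chemokine of platelets and myeloid cells, had the largest positive difference of all tested genes, 3.80 ± 1.61, at 7.68, 4.07 and 0.608 against 122, 169.8 and 8.03. For these 3 genes D150L150 1 and 2 were high and D150L150 3 was near the D15L150 libraries. Macrophage genes had a median of 0.01 and showed no common direction. Chil3 was at 18.8, 5.75 and 12.96 against 29.8, 36.5 and 28.5, while Retnla, another gene of alternatively activated macrophages, was at 46.8, 41.3 and 19.4 against 0.887, 13.5 and 6.56. Among giant cell fusion genes Cd44 alone lay higher, at 48.01, 48.9 and 50.8 against 89.5, 89.2 and 62.996.

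Complement and antigen presentation lay on the lower side. Of 20 complement genes 7 lay lower without overlap and 0 higher, with a median of -0.56 that ranged from -0.68 to -0.45 when 1 of the 6 libraries was left out, was -0.90 without the libraries numbered 3, and was -0.08 with the muscle level as a covariate. C7, of the membrane attack complex, was at 8.67, 8.0 and 19.9 FPKM in D15L150 and 0.914, 0.628 and 4.98 in D150L150, a difference of -2.20 ± 0.71. C3, the central component, was at 189.5, 123.5 and 105 against 35.9, 67.1 and 61.8, and Serping1, the C1 inhibitor gene, at 358, 321 and 269 against 173, 166 and 229. Of 11 genes of MHC class II and Langerhans cells 6 lay lower, among them H2-Eb1 (163, 179.5 and 195 against 78.9, 116 and 156) and the class II transactivator gene Ciita (2.42, 2.34 and 2.02 against 0.844, 1.01 and 2.01). D150L150 3 was the closest to D15L150 in both. Interferon-stimulated genes did not separate, with none of 24 apart and a median of 0.21 that turned to -0.09 without D150L150 1. T cell and mast cell genes had medians of -0.22 and -0.41, with 2 of 16 and 1 of 9 lower without overlap. Without D150L150 2 these medians were 0.03 and -0.10.

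D100L150, which lies between the groups in the D number, shares D15L150 or D150L150 with each further comparison, so its values are given side by side only. Against D15L150 it had 0 called genes in limma (0%) and 1492 at an unadjusted p under 0.05 (11.4%), and D150L150 against D100L150 had 0 called (0%) and 288 at an unadjusted p under 0.05 (2.2%). Actn1 was at 55.1, 48.9 and 41.9 FPKM in D100L150 and differed from D15L150 by 0.63 ± 0.20. Krt2 differed by -2.76 ± 0.44 from D15L150, and D150L150 from D100L150 by 0.01 ± 0.44. Ptch1 was at 1.70, 1.43 and 1.32 in D100L150, -0.82 ± 0.13 from D15L150. For these 3 genes the D100L150 libraries lay on the same side of every D15L150 library as D150L150 did. Jag1 was at 7.89, 6.43 and 4.88, with D100L150 between the other groups by its mean. The wound-activated list had a median of 1.33 in D100L150 against D15L150, and the skeletal muscle list -1.25, with the D100L150 libraries spread from 4.33 to 7.97 in muscle level.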

How the data were processed

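The series holds RNA-seq of mouse skin flaps, total RNA, 18 libraries in 6 groups of 3. Values are the FPKM table the authors deposited. Per the submitters' processing notes, fastp, HISAT2, HTSeq, R 3.2.0 and DESeq2 were used with the mm10 build (GRCm38), in no stated role or order, and strandedness is not given in the sources used here. Per the labels' protocols, RNA came from TRIzol extraction and a VAHTS Universal V6 kit was used for the libraries. FPKM hides depth, so fragment numbers were recovered from the steps of the values, which were whole multiples in all 27743 genes. The 18 libraries held 28422344 to 35327357 fragments, and the precision of low genes is limited by such numbers.

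Genes under 1 FPKM in more than 15 of the 18 libraries (14665) were removed. A limma 3.58.1 model (R 4.3.3) with trend and robust moderation was fitted to log2(FPKM + 1) of all 18 libraries with 1 mean per group, so that the 6 groups share an estimate of the spread. P-values were two-sided and adjusted over 13078 genes by Benjamini and Hochberg, with a threshold of 0.05. The fit was checked on simulated data. A count model was not used as the main test, since FPKM are not counts. The genes named were the first 10 in each direction by p among genes without overlap (predicted genes left out), and for each of 56 lists the 4 members with the smallest p and the 2 with the highest mean, and the cell type markers. Lists were described by counts and medians, without a test. The members and lists were chosen with earlier results of these data known. Promoters and gene positions are from RefSeq tables of GRCm38.p6, matched by gene ID or symbol. Alternatives were a pseudocount of 0.1, no filter, quantile and TPM scaling, the replicate number as a block, the 6 libraries alone, voom on recovered fragments, a muscle covariate and leaving out each library. Libraries of the D15L100 and D15L200 groups entered the fit and are not described. Some genes that the rule names are not reported here.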

Additional observations from a re-analysis of the deposited data

How the results depend on the processing

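No gene was called between D150L150 and D15L150 under 14 of the 15 alternatives. Without the filter on low values 2 were called, named here after their values were seen. They were Cntn2, with 21, 10 and 17 fragments in D15L150 and 113, 139 and 125 in D150L150 (log2 difference 0.42, limma adjusted p = 0.0319), and Crhr1, with 4, 4 and 4 fragments against 0, 0 and 0 (limma adjusted p = 0.0491). The number of genes at an unadjusted p under 0.05, 648 as reported, was 1378 without the filter, 237 with the muscle covariate, 1167 without the libraries numbered 3 (an alternative added after seeing the data), and 325 to 1276 when 1 library was left out, lowest without D15L150 2 and highest without D15L150 3. It was also under 400 without D15L150 1 (384) or D150L150 1 (339). The smallest adjusted p over these fits ranged from 0.0319 to 0.9997. In D100L150 against D15L150 the muscle covariate gave 1 called gene in place of 0. With the replicate number as a block (replicate block), 0 genes were called and 570 had an unadjusted p under 0.05. In a fit of only the 6 libraries 0 were called and 955 had an unadjusted p under 0.05, 55.1% of them higher in D150L150. Deviations of same-numbered libraries correlated at 0.14, 0.08 and 0.35. D150L150 1 and D150L150 3 correlated best with the D15L150 library of their own number, and D150L150 2 with D15L150 1. The numbers were not taken to pair the libraries, and whether some of them are paired was not tested. Among the named genes Hbb-bs, given as levels only, changed sign, with a log2 difference of -0.62 with the muscle covariate and -0.22 to 1.02 when 1 library was left out. The other genes named with a difference, or with values per library in both groups, kept their sign under all alternatives that gave a value. Genes given only as a range are not covered by this. Cd68 is 1 of these, at 229, 199 and 165 FPKM in D15L150 and 216, 214 and 165 in D150L150, so its sign is not fixed. Of 56 list medians 38 kept their sign under every alternative and 18 did not, and 787 of 840 medians stayed within 1 SD of the list level. The causes of these shifts were not tested. With 3 libraries per group and a median SE of 0.17, differences of the size of most genes here could not be told from 0.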
